A study of Mus musculus with 23 samples.

Results

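The 10 genes described here encode proteins of the lysosome and of the recycling route for immunoglobulin G in mouse B cells. They are the lysosomal thiol reductase Ifi30, the cathepsins Ctss, Ctsb, Ctsc, Ctsd, Ctsh and Ctsz, the lysosomal membrane protein Lamp1, the pore-forming protein Mpeg1 (perforin-2) and Fcgrt, the heavy chain of FcRn, the neonatal Fc receptor. They were chosen by symbol, without a rule on measured values but with earlier results of these data known. All 10 were among the 11548 genes listed for naive B cells. Of the 10574 genes listed for cultured B cells, 9 were members, and Fcgrt was not listed.

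The study's 23 RNA-seq libraries came from sorted spleen B cells of 8 groups, some with a guide RNA against Irf8, which encodes an interferon regulatory factor, and some without a guide. Naive B cells had no treatment and comprised KO cells with guide 1 (3 libraries), their WT cells (arm 1, 3 libraries), KO cells with guide 2 (3 libraries) and their WT cells (arm 2, 3 libraries). Cultured B cells had been stimulated with 3 agents, IL-2 at 20 ng/ml, IL-5 at 5 ng/ml and LPS at a labelled 20 mg/ml, for 72 hours. They comprised activated KO (3 libraries), activated WT (3), plasmablast KO (3) and plasmablast WT (2) cells, with guide 1 in both KO groups. The sort took Thy1.1-positive cells as KO and Thy1.1-negative cells as WT. Naive cells were B220-positive and lacked CD11b, F4/80 and Thy1.2, activated cells carried B220 and GL7 without CD138, and plasmablasts carried CD138 with full or intermediate B220. No group carried a guide against another target, so targeting Irf8 and carrying any guide cannot be told apart. How the guides were delivered, the mouse strain and age, and whether animals were pooled are not given in the sources used here. The labels do not say that libraries of a group came from separate animals or cultures, so a p-value reflects the spread among these libraries alone, which may be technical.

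B cells take up antigen through the B cell receptor and cut it in acidic endosomes and lysosomes. There Ifi30 reduces disulfide bonds, cathepsins cleave the unfolded protein, and cathepsin S also trims the invariant chain from MHC class II molecules before peptide is loaded. FcRn, a dimer of Fcgrt with beta-2-microglobulin, binds immunoglobulin G in acidic endosomes and returns it to the cell surface instead of the lysosome. Many lysosomal genes carry in their promoters an E-box that is bound by TFEB, a regulator of lysosome formation, whereas IRF8 binds interferon-stimulated response elements and, together with ETS factors such as PU.1, composite elements.

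Promoter windows of RefSeq on GRCm38.p6, from 250 bases before to 50 bases after the start of the gene, were available for 8 of the 10 genes. Shown are the window of Fcgrt, which differed most between naive KO and WT cells, and the windows of the 4 genes that held a searched motif. Both strands were searched for CACGTG, GAAANNGAAA and GGAANNGAAA, and matches are in capitals.
Fcgrt, chr7:45103773-45104072, minus strand: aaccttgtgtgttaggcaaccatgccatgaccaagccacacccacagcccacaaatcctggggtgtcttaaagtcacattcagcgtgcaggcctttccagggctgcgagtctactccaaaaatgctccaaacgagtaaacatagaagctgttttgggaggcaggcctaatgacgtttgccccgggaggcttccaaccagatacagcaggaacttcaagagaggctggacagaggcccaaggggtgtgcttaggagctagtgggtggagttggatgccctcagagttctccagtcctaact
Ifi30, chr8:70766614-70766913, minus strand: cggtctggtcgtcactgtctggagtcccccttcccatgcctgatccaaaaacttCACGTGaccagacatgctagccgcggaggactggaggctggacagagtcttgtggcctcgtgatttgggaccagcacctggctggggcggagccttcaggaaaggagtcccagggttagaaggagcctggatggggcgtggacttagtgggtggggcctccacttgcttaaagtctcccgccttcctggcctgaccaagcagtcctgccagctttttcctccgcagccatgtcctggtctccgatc
Ctss, chr3:95526536-95526835, plus strand: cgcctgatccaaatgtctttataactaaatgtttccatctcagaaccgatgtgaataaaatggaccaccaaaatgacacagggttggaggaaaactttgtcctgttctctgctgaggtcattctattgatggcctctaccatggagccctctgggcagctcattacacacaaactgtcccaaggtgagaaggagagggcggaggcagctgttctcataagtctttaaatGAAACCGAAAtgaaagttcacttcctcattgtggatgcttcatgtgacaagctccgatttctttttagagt
Ctsd, chr7:142387778-142388077, minus strand: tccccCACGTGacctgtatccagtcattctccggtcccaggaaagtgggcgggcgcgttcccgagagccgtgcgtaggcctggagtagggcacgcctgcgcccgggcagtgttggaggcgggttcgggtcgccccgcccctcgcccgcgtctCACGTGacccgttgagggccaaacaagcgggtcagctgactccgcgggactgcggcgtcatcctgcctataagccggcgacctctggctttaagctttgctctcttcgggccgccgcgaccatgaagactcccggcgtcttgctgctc
Lamp1, chr8:13158911-13159210, plus strand: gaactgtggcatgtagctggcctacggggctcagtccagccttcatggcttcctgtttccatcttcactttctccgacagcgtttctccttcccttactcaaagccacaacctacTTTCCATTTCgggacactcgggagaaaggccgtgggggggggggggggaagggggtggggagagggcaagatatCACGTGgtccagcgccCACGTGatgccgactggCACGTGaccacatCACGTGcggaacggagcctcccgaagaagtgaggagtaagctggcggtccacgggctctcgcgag
The E-box CACGTG occurred once in the Ifi30 window, at position -196 from the start. The Ctsd window held it at -245 and -98, and the Lamp1 window held 4 copies between -61 and -15. Of 32851 windows in RefSeq, 7.15% held this motif, against 3 of the 8 members with a window. The interferon response element core GAAANNGAAA was found in Ctss, at -21, and on the opposite strand in Lamp1, at -135, and 3.44% of all windows held it. The ETS-IRF composite motif GGAANNGAAA, held by 2.72% of all windows, was in none of the 8. The windows of Fcgrt, Ctsc, Ctsz and Mpeg1 held none of the 3 motifs, and no match overlapped another. These matches describe the letters in these windows and are not evidence of binding.

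The unit of all levels is RPKM, which corrects the reads of a gene for its length and for library size. Differences are on the log2(RPKM + 1) scale, with a gene called at an adjusted p under 0.05. Whole-read steps in the RPKM values put the depth at 14496000 to 22171000 reads in the naive libraries and at 4323000 to 26896000 in 10 of the 11 cultured ones. Plasmablast KO library m3 had about 51000 reads, and its values for the members rest on 0 to 12.9 estimated reads each. Irf8 was at 59.5, 77.7 and 72.4 RPKM in guide 1 KO and 50.9, 50.3 and 47.6 RPKM in guide 2 KO naive libraries, below all 6 WT libraries (79.8 to 98.0 RPKM). Thy1, whose Thy1.1 form was used for the sort, was at 8.88 to 22.1 RPKM in naive KO libraries, against 4.93 RPKM in WT arm 1 library A and 0 to 0.052 RPKM in the other 5 naive WT libraries. In culture, Thy1 was at 21.9 and 27.8 RPKM in the m1 and m2 libraries of activated KO cells, and at 0.013 and 0.055 RPKM in activated WT libraries m1 and m2. The library labelled activated KO m3 had 0.093 RPKM and the library labelled activated WT m3 had 25.7 RPKM of Thy1, and their Irf8 (92.4 and 59.998 RPKM) also went against their labels. Naive KO guide 1 library A listed 1405 genes at 0, against 66 to 291 in the other naive libraries. Those 4 libraries stand apart, and calls of members that rest on them are given with and without them. Summed over the 8 B cell markers chosen, levels were 2946 to 3766 RPKM in naive libraries.

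Most of the 10 genes were highly expressed in naive B cells. Ctss, which processes invariant chain and antigen, was the 24th highest of the 11548 listed genes by mean RPKM, and Ctsz, a carboxypeptidase, was the 33rd. Ifi30 ranked 155th, Ctsc, a dipeptidyl peptidase, 248th, and Lamp1, a heavily glycosylated protein of the lysosome's limiting membrane, 293rd. Ctsh, an aminopeptidase, ranked 535th, Ctsb, a cysteine protease, 783rd and Ctsd, the aspartic protease among these cathepsins, 1642nd. Fcgrt lay near the middle, above 52.3% of listed genes, and Mpeg1 lay above 16.0%. Together the 10 genes held 946 to 1289 RPKM in KO naive libraries of guide 1 and 983 to 1156 RPKM in those of guide 2, against 1157 to 1177 RPKM in WT libraries of arm 1 and 1028 to 1210 RPKM in those of arm 2, so the summed levels overlapped.

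**Figure D1:**
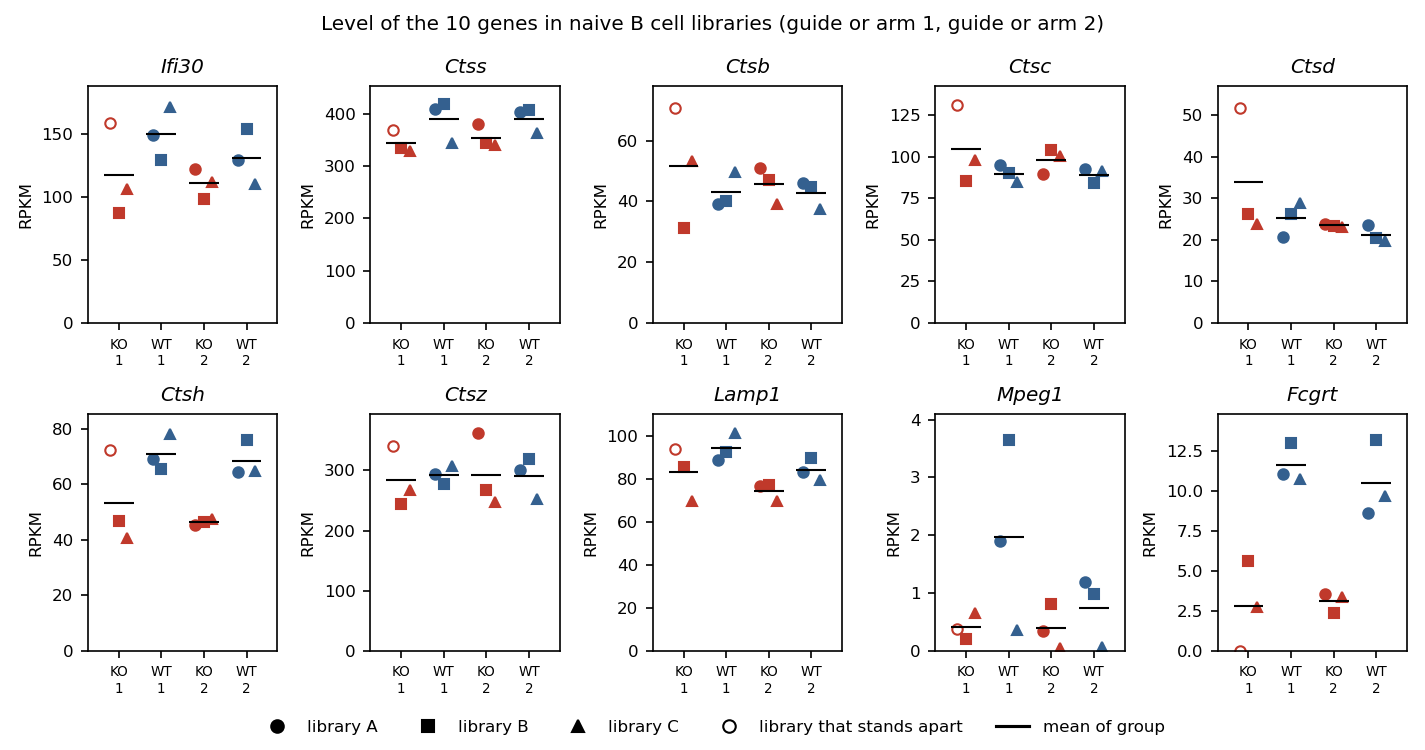
RPKM of the 10 genes in each naive library, 1 panel a gene with its own axis from 0. KO is red and WT blue, with guide or arm 1 before guide or arm 2. Bars are group means of 3 libraries and the open circle is KO guide 1 library A. For Fcgrt the 6 KO points lie between 0 and 5.60 RPKM, all below the WT points (8.59 to 13.2 RPKM).

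Fcgrt was the member that fell in naive KO cells when all 12 libraries were used. Fcgrt was at 0, 5.60 and 2.74 RPKM in KO libraries A, B and C of guide 1 and at 3.57, 2.39 and 3.35 RPKM in those of guide 2. In WT cells it was at 11.035, 13.0 and 10.7 RPKM in arm 1 and at 8.59, 13.2 and 9.67 RPKM in arm 2. Every KO library lay below every WT library, which held in this direction for 0.927% of all tested genes. Over both guides Fcgrt averaged 2.94 ± 1.82 RPKM in KO cells and 11.035 ± 1.81 RPKM in WT cells (SD, n = 6 each). The log2 difference was -1.79 (SE 0.35, limma, adjusted p = 0.0236), and 1.88% of the 10137 tested genes were called in this comparison. The value of 0 in KO guide 1 library A was one of the 1405 in that library. Without that library the difference was -1.41 (SE 0.16, adjusted p = 0.000618). With all libraries and a pseudocount of 0.1 in place of 1 it was -2.52 (SE 0.77, adjusted p = 0.175) and not called. With all 12 libraries, the call was lost when any 1 of 7 other libraries was left out (WT arm 1 A, B or C, KO guide 2 A or B, WT arm 2 B or C), with adjusted p between 0.0575 and 0.0762 and differences between -1.83 and -1.71. In bulk libraries such as these, fewer cells of a type and less RNA per cell cannot be told apart.

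Ctsh, the aminopeptidase, was lower in 5 of the 6 KO libraries than in any WT library. It was at 72.5, 46.7 and 40.5 RPKM in KO libraries A, B and C of guide 1 and at 45.4, 46.4 and 47.5 RPKM in those of guide 2. WT libraries had 69.0, 65.5 and 78.0 RPKM in arm 1 and 64.3, 75.9 and 64.8 RPKM in arm 2. KO guide 1 library A alone lay within the WT range. Without it every KO library lay below every WT library, as for 1.39% of genes in that fit. The log2 difference with all libraries was -0.50 (SE 0.12, limma, adjusted p = 0.0702) and did not pass. Without KO guide 1 library A, Ctsh fell by 0.62 (SE 0.08, adjusted p = 0.000971), and 3.84% of 10068 genes were called.

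Ifi30, the thiol reductase, overlapped more between the groups. It was at 159, 87.1 and 106 RPKM in KO libraries A, B and C of guide 1 and at 122, 98.1 and 112 RPKM in those of guide 2. WT libraries had 149, 129 and 172 RPKM in arm 1 and 129, 154 and 110 RPKM in arm 2. The 5 KO libraries other than guide 1 library A lay at or below 122 RPKM, and 1 WT library, arm 2 C, lay within their range. The log2 difference was -0.31 (SE 0.14, limma, adjusted p = 0.39) with all libraries and -0.43 (SE 0.11, adjusted p = 0.0395) without KO guide 1 library A.

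Mpeg1, whose product forms pores in membranes of engulfed bacteria, was low and variable. It was at 0.382, 0.201 and 0.661 RPKM in KO libraries of guide 1 and at 0.343, 0.813 and 0.043 RPKM in those of guide 2. WT libraries had 1.91, 3.65 and 0.363 RPKM in arm 1 and 1.20, 0.986 and 0.059 RPKM in arm 2. The lowest WT library was library C in both arms, and these lay within the KO range. The log2 difference was -0.60 (SE 0.30, limma, adjusted p = 0.428) with all libraries and -0.60 (SE 0.30, adjusted p = 0.335) without KO guide 1 library A, on a scale that shrinks differences of genes near 1 RPKM.

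The other 6 members did not pass in naive cells, with or without KO guide 1 library A. Ctss was at 329 to 380 RPKM (median 342) in KO libraries and at 344 to 419 RPKM (median 405) in WT libraries, with a difference of -0.16 (SE 0.07, limma, adjusted p = 0.396). Lamp1 was at 70.0 to 94.1 RPKM (median 76.9) in KO libraries and at 79.6 to 102 RPKM (median 89.4) in WT libraries, with a difference of -0.18 (SE 0.08, adjusted p = 0.399). Both genes overlapped between the groups. For Ctsb, Ctsc, Ctsd and Ctsz the differences lay between -0.03 and 0.24 (adjusted p 0.52 to 0.936). Over all 10 members the median difference was -0.17, against -0.02 over all tested genes.

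The guides were also compared with their own WT arms. With guide 1, Fcgrt differed by -2.11 (SE 0.50, limma, adjusted p = 0.0637) and Ctsh by -0.45 (SE 0.18, adjusted p = 0.245), and no member was called, against 1.11% of all genes. With guide 2, Fcgrt differed by -1.48 (SE 0.50, adjusted p = 0.828) and Ctsh by -0.54 (SE 0.18, adjusted p = 0.828), and no member was called, against 0.0296% of all genes. At an unadjusted p under 0.05, 2 members passed with each guide, against 1594 of all tested genes with guide 1 and 426 with guide 2. Without KO guide 1 library A both genes passed with each guide. All naive groups share an estimate of the spread in the fit. Leaving out that library left the guide 2 differences unchanged and lowered their SE, so the guide 2 calls come from a smaller shared spread. Guide 1 then gave -1.34 for Fcgrt (SE 0.24, adjusted p = 0.0172) and -0.69 for Ctsh (SE 0.12, adjusted p = 0.0128), with 2.4% of all genes called. Guide 2 gave -1.48 for Fcgrt (SE 0.22, adjusted p = 0.0132) and -0.54 for Ctsh (SE 0.11, adjusted p = 0.0495), with 0.348% of all genes called. In these fits 4 members and 1927 genes had an unadjusted p under 0.05 with guide 1, and 2 members and 870 genes with guide 2. No member and no other gene was called for the difference between the guides (0% of 10137), where 0 members and 479 genes had an unadjusted p under 0.05. For Fcgrt that difference was -0.63 (SE 0.70, adjusted p = 0.947), and for Ctsh it was 0.10 (SE 0.25, adjusted p = 0.975). Without KO guide 1 library A both signs turned, to 0.14 for Fcgrt (SE 0.32, adjusted p = 0.907) and -0.14 for Ctsh (SE 0.16, adjusted p = 0.776).

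Macrophages express several of these genes strongly, so the 16 macrophage and monocyte markers chosen, of which 10 were listed, were summed in each naive library. The sums were 5.83 to 56.3 RPKM in KO libraries of guide 1 and 2.04 to 6.84 RPKM in those of guide 2, against 6.45 to 13.1 RPKM in WT libraries of arm 1 and 4.05 to 16.4 RPKM in those of arm 2. The highest was KO guide 1 library A, with Vcam1 at 15.2, C1qa at 13.3, C1qb at 10.6, Adgre1 at 8.71 and Slc40a1 at 8.05 RPKM. Mertk was at 0.396 RPKM there, and Csf1r, Itgam, Ccr2 and Cd5l were at 0. This library also had the highest Ctsd (51.6 RPKM), Ctsb (70.8 RPKM) and Ctsc (131 RPKM) of all naive libraries. The part of macrophage RNA in these levels was not tested.

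The rest of the endolysosomal pathway was taken from lists of genes with known roles. In naive cells with all libraries, 1 of 38 tested lysosomal hydrolases and activators was called higher in KO cells and 1 lower. Gm2a, an activator protein that lifts glycolipids out of membranes for their breakdown, rose by 0.56 (SE 0.10, limma, adjusted p = 0.0147). Of 9 other lysosomal proteases 1 was called, the serine carboxypeptidase family member Scpep1, which fell by 0.57 (SE 0.12, adjusted p = 0.0292). None was called among 2 inhibitors of lysosomal proteases, 23 lysosomal membrane proteins, 17 vacuolar ATPase subunits, 24 genes of lysosomal biogenesis and sorting and 10 genes of MHC class II loading, whose median differences were 0, -0.05, -0.10, -0.04 and 0, against -0.02 over all genes.

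Among 12 tested Fc receptors and their partners, 2 fell. Fcer2a, the low-affinity receptor for immunoglobulin E that marks follicular B cells, averaged 163 ± 87.4 RPKM in guide 1 KO cells and 366 ± 83.6 RPKM in WT arm 1 cells (SD, n = 3 each). It averaged 196 ± 37.4 RPKM in guide 2 KO cells and 368 ± 20.4 RPKM in WT arm 2 cells (SD, n = 3 each), and the difference over both guides was -1.10 (SE 0.21, limma, adjusted p = 0.0211). Fcmr, the receptor for immunoglobulin M, fell by 0.40 (SE 0.08, adjusted p = 0.0229). Of 14 recycling endosome genes, Ehd4, an ATPase of endosomal membranes, fell by 1.06 (SE 0.16, adjusted p = 0.00775). Of 3 tested pore-forming proteins, Prf1, the perforin of cytotoxic lymphocytes, rose by 1.26 (SE 0.19, adjusted p = 0.00775), at 2.27 to 5.33 RPKM in KO libraries and 0.388 to 2.04 RPKM in WT libraries. Natural killer cell markers, 5 of 8 of them listed, summed to 0.013 to 0.859 RPKM in KO libraries and 0.261 to 15.4 RPKM in WT libraries. Of 9 T cell markers only Lck and Cd5 were listed, and these summed to 15.7 to 41.0 RPKM in KO libraries and 15.4 to 21.7 RPKM in WT libraries. By this sum 3 KO libraries (guide 1 A, guide 2 A and C) lay above every WT library. Most of the sum was Lck, at 15.1 to 31.6 RPKM over the naive libraries. Cd5 was at 0.278 to 9.36 RPKM in KO guide 1 and 0.042 to 0.523 RPKM in KO guide 2 libraries. In WT libraries Cd5 was at 0.179 to 0.938 RPKM in arm 1 and 0.045 to 0.423 RPKM in arm 2. The part of other lymphocytes in the Prf1 difference was not tested. Without KO guide 1 library A the counts of calls in these lists were the same, except that Fcamr, a receptor for immunoglobulins A and M named after its value was seen, was then also called higher (0.59, SE 0.15, adjusted p = 0.0421). The 6 genes named from these lists kept their call without KO guide 1 library A, with adjusted p between 0.00209 and 0.0119. In that fit 2.09% of all genes were called higher and 1.76% lower.

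**Figure D2:**
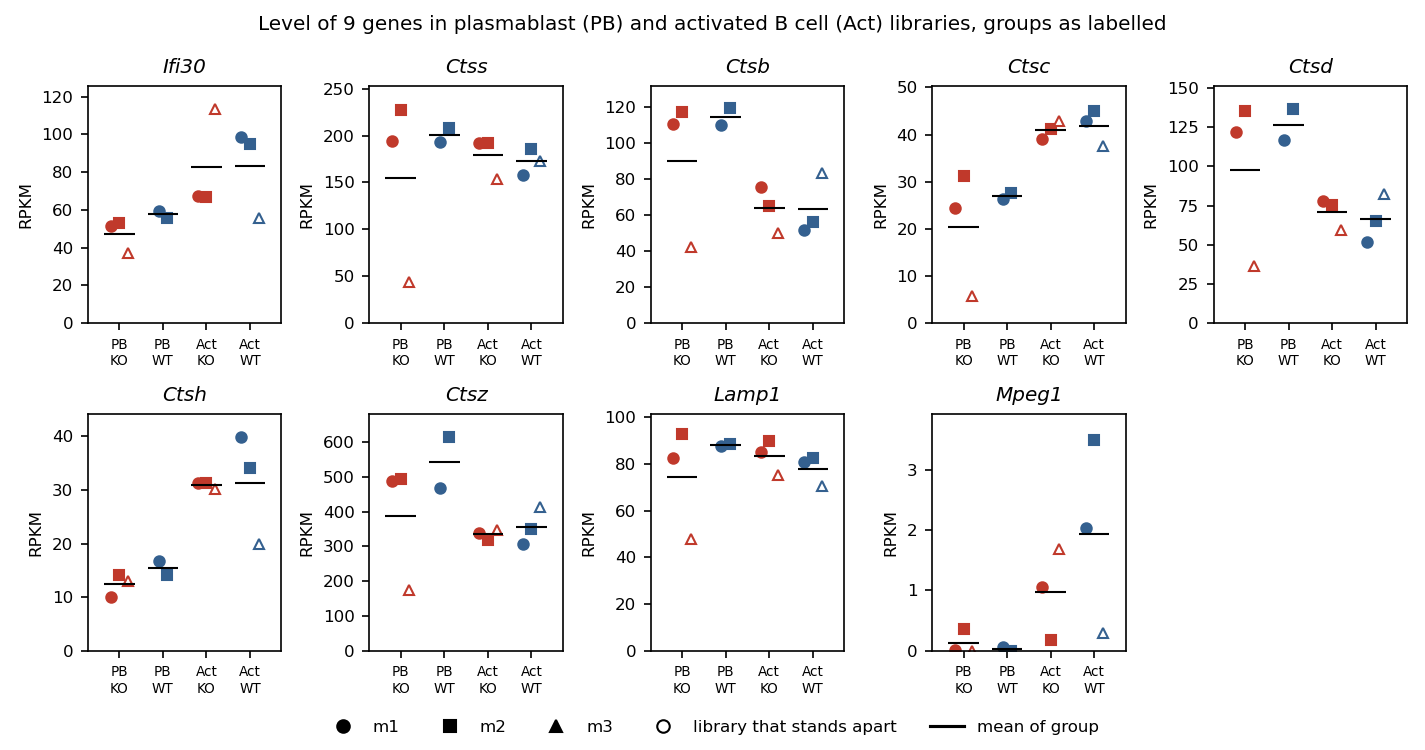
RPKM of the 9 listed members in each plasmablast (PB) and activated (Act) library, groups as labelled, 1 panel a gene with its own axis from 0. KO is red, WT blue, bars are group means and open triangles are the m3 libraries. For Ctsb, the plasmablast m1 and m2 libraries lie at 110 to 119 RPKM, above every activated library (50.1 to 83.3 RPKM).

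In activated B cells no member was called between KO and WT as labelled, and no gene of the whole table was (0% of 9986). At an unadjusted p under 0.05 there were 0 members and 2 genes. Ifi30 was at 67.5 and 66.6 RPKM in KO libraries m1 and m2 and at 114 RPKM in the library labelled KO m3, against 98.6 and 94.8 RPKM in WT libraries m1 and m2 and 55.9 RPKM in the library labelled WT m3. The order of KO and WT in the m3 libraries was opposite to that in m1 and m2. The log2 difference with all 6 libraries was -0.01 (SE 0.30, limma, adjusted p = 1).

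With libraries m1 and m2 alone, Ifi30 and Mpeg1 fell in activated KO cells. Ifi30 averaged 67.1 ± 0.673 RPKM in KO and 96.7 ± 2.75 RPKM in WT cells (SD, n = 2 each), a difference of -0.52 (SE 0.10, limma, adjusted p = 0.0354). Mpeg1 was at 1.05 and 0.179 RPKM in KO and at 2.04 and 3.50 RPKM in WT libraries, a difference of -1.25 (SE 0.26, adjusted p = 0.0499). Of the 16 macrophage and monocyte markers Itgam alone was listed in culture, at 0.974 and 0.475 RPKM in KO and 1.81 and 1.20 RPKM in WT libraries m1 and m2, and its part in the Mpeg1 difference was not tested. Of all genes, 0.71% were called in this fit, and 0.0913% of all genes were called lower. At an unadjusted p under 0.05 there were 4 members and 1185 genes in this fit. Ctsb, at 75.7 and 65.4 RPKM in KO and 51.5 and 56.2 RPKM in WT libraries, differed by 0.38 (SE 0.11, adjusted p = 0.149). Ctsd, at 77.6 and 75.7 RPKM in KO and 52.0 and 65.3 RPKM in WT libraries, differed by 0.39 (SE 0.13, adjusted p = 0.202). Neither passed, although the groups did not overlap, and Ctss, Ctsc, Ctsh, Ctsz and Lamp1 differed by -0.23 to 0.16 and did not pass (adjusted p 0.615 to 0.998). With 2 libraries a group, 4 members lay higher in both KO libraries than in both WT libraries and 4 lower, against 23.9% and 25.1% of all genes. The summed plasma cell markers moved the same way as Ctsb and Ctsd, at 2019 and 1893 RPKM in KO libraries m1 and m2 and 1119 and 1581 RPKM in WT libraries m1 and m2. Their part in these differences was not tested. Of 38 tested lysosomal hydrolases and activators 1 was called higher in KO cells, with a median difference of 0.15 against -0.01 over all genes, and no other pathway gene was called.

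Irf8 did not separate the plasmablast libraries, at 17.5, 21.4 and 24.2 RPKM in KO and 24.6 and 17.6 RPKM in WT libraries, which overlapped. Its difference was 0.00 (SE 0.30, limma, adjusted p = 0.994) with all libraries and -0.10 (SE 0.15, adjusted p = 0.992) without those that stand apart. In plasmablasts no member was called between KO and WT, and no gene of the table was (0% of 9986, with 0 members and 85 genes at an unadjusted p under 0.05). Ifi30 was at 51.6, 53.1 and 36.9 RPKM in KO and at 59.7 and 55.6 RPKM in WT libraries, so that every KO library lay below both WT libraries, as for 5.29% of all genes. The third KO value rests on about 2 reads. The log2 difference was -0.30 (SE 0.33, limma, adjusted p = 0.617). Without the 3 cultured libraries that stand apart it was -0.14 (SE 0.10, adjusted p = 0.979), and the differences of the other 8 members lay between -0.33 and 0.19 (adjusted p 0.818 to 1), with 0.071% of all genes called. Ctsh had the lowest of these, at 10.1 and 14.2 RPKM in KO libraries m1 and m2 and 16.8 and 14.1 RPKM in WT libraries. With all libraries, 8 of the 9 members differed by -0.68 to -0.30, and all of these except Ctsh lay closer to 0 without those 3 libraries. In the fit without them 1 member and 588 genes had an unadjusted p under 0.05. No gene of the pathway lists was called between KO and WT plasmablasts in either fit. For the difference of the KO effect between plasmablasts and activated cells, 0% of genes were called with all libraries and 0.0304% without those that stand apart. No member was among them in either fit. With all libraries 0 members and 10 genes had an unadjusted p under 0.05. Without those that stand apart 3 members and 752 genes did.

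Plasmablasts differed from activated B cells in most of the members once the libraries that stand apart were left out. The direction split the cathepsins. Ctsb, Ctsd and Ctsz rose in both genotypes, whereas Ctsc, Ctsh and Ifi30 fell in both. This comparison moves a large share of all genes, since 46.3% of 9861 genes were called in WT cells and 33.6% in KO cells, so 7 and 6 called members of 9 are to be read against that background.

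Ctsd, the aspartic protease, was at 117 and 136 RPKM in WT plasmablast libraries m1 and m2, against 52.0 and 65.3 RPKM in WT activated libraries m1 and m2. In KO cells it was at 122 and 136 RPKM in plasmablasts and at 77.6 and 75.7 RPKM in activated cells. All plasmablast values lay above all activated values, as for 25.1% of genes in WT and 25.2% in KO cells. Ctsd rose by 1.10 in WT (SE 0.13, limma, adjusted p = 1.8e-05) and by 0.74 in KO cells (SE 0.13, adjusted p = 0.000718). Ctsb, at 110 and 119 RPKM in WT plasmablasts and 51.5 and 56.2 RPKM in WT activated cells, rose by 1.08 (SE 0.11, adjusted p = 6.59e-06). In KO cells Ctsb rose by 0.69 (SE 0.11, adjusted p = 0.000425). Ctsz, the most abundant member in culture, was at 468 and 615 RPKM in WT plasmablasts, against 306 and 352 RPKM in WT activated cells. It rose by 0.71 in WT (SE 0.15, adjusted p = 0.0019) and by 0.58 in KO cells (SE 0.15, adjusted p = 0.00936).

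Ctsh moved the other way. It was at 16.8 and 14.1 RPKM in WT plasmablasts, against 39.8 and 34.0 RPKM in WT activated cells. In KO cells it was at 10.1 and 14.2 RPKM in plasmablasts and at 31.2 RPKM in both activated libraries. Ctsh fell by 1.20 in WT (SE 0.15, limma, adjusted p = 3.2e-05) and by 1.31 in KO cells (SE 0.15, adjusted p = 3.05e-05). Ctsc, at 26.4 and 27.6 RPKM in WT plasmablasts and 42.9 and 45.0 RPKM in WT activated cells, fell by 0.69 (SE 0.12, adjusted p = 0.000454), and in KO cells by 0.52 (SE 0.12, adjusted p = 0.0047). Ifi30 fell by 0.74 in WT (SE 0.10, adjusted p = 5.29e-05) and by 0.35 in KO cells (SE 0.10, adjusted p = 0.0136). Mpeg1 was at 0.06 and 0 RPKM in WT plasmablasts, against 2.04 and 3.50 RPKM in WT activated cells, and fell by 1.84 on the log2(RPKM + 1) scale (SE 0.26, adjusted p = 8.98e-05). In KO cells Mpeg1 was at 0.012 and 0.358 RPKM in plasmablasts and at 1.05 and 0.179 RPKM in activated cells, which overlapped, with a difference of -0.41 (SE 0.26, adjusted p = 0.249). The test of the difference between genotypes gave 1.43 for Mpeg1 (SE 0.37, adjusted p = 0.338) and did not pass. Ctss and Lamp1 did not pass in either genotype, with differences from 0 to 0.22.

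With all libraries as labelled, the same comparison called no member in WT cells, against 1.76% of genes, with 2 members and 1369 genes at an unadjusted p under 0.05. The differences were 0.94 for Ctsd (SE 0.50, limma, adjusted p = 0.478), 0.87 for Ctsb (SE 0.43, adjusted p = 0.436) and -0.92 for Ctsh (SE 0.28, adjusted p = 0.17). Leaving out the library labelled activated WT m3 called Ctsh and no other member, against 1.86% of genes. In KO cells Ctsh alone was called, at -1.26 (SE 0.25, adjusted p = 0.0309), against 3.44% of genes. That call was lost when any of the other KO libraries was left out (activated m1, m2 or the library labelled activated KO m3, plasmablast m1 or m2). Leaving out plasmablast KO m3 gave 5 called members, against 30.7% of genes in that fit.

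**Figure D3:**
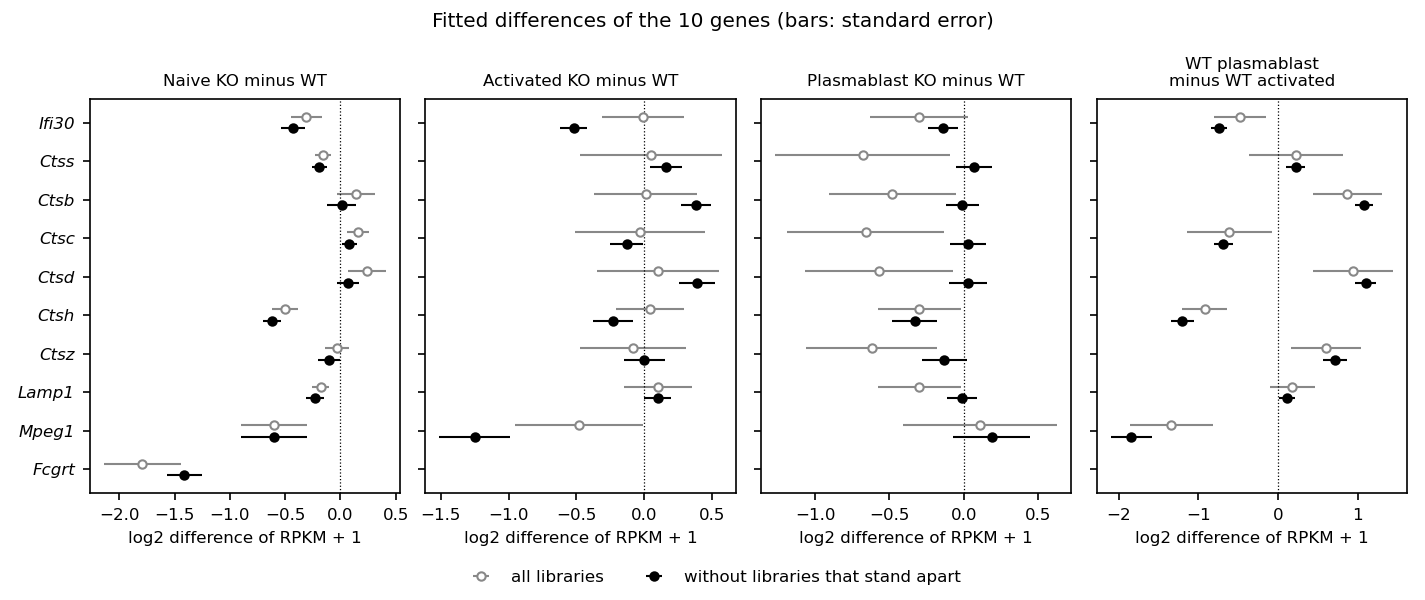
Fitted log2 differences of RPKM + 1 with their standard errors for the 10 members, grey with all libraries and black without those that stand apart. The panels are naive KO minus WT over both guides, activated KO minus WT, plasmablast KO minus WT and WT plasmablast minus WT activated. Fcgrt lies at -1.79 and -1.41 in naive cells, and in the last panel Ctsb, Ctsd and Ctsz lie right of 0 and Ifi30, Ctsc, Ctsh and Mpeg1 left of it.

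The lists of pathway genes also split by role between plasmablasts and activated cells. In WT cells without the libraries that stand apart, 19 of 38 lysosomal hydrolases and activators were called higher and 3 lower, with a median difference of 0.35 against -0.16 over all genes. Of all genes in WT cells, 15.5% were called higher and 30.7% lower. Of 17 vacuolar ATPase subunits 9 were called higher and 2 lower (median 0.26). Of 9 other lysosomal proteases 4 were higher and 1 lower (median 0.28), and of 21 lysosomal membrane proteins 6 were higher and 4 lower (median -0.02). Class II loading went the other way, with 9 of 10 genes lower (median -1.82), as did 6 of 9 Fc receptors and partners (median -0.52). In KO cells the corresponding counts were 17 higher and 4 lower of 38 hydrolases, 7 higher and 1 lower of 17 ATPase subunits, 9 of 10 class II loading genes lower and 6 of 9 Fc receptors lower, against 12.1% of all genes higher and 21.5% lower. With all libraries the counts were smaller, at 2 hydrolases higher and 1 lower and 4 class II loading genes lower in WT cells, and 1 hydrolase higher, 1 lower and 8 class II loading genes lower in KO cells. Of all genes, 0.33% were then called higher and 1.43% lower in WT cells, and 0.771% and 2.67% in KO cells.

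Several of these passed with all libraries included. Galns, a lysosomal sulfatase, averaged 37.4 ± 0.494 RPKM in WT plasmablasts (SD, n = 2) and 19.1 ± 3.82 RPKM in WT activated cells (SD, n = 3), and rose by 0.95 (SE 0.20, limma, adjusted p = 0.0476). In KO cells Galns rose by 0.93 (SE 0.18, adjusted p = 0.0252). Gla, alpha-galactosidase A, rose by 1.34 in WT cells (SE 0.24, adjusted p = 0.0273). Slc17a5, the sialic acid exporter of the lysosome, rose by 1.02 in KO cells (SE 0.20, adjusted p = 0.0303), and Laptm5, a lysosomal membrane protein of blood cells, fell by 1.58 (SE 0.30, adjusted p = 0.026).

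H2-DMb2, a chain of the peptide exchange factor of class II molecules, averaged 12.3 ± 1.66 RPKM in WT plasmablasts (SD, n = 2) and 112 ± 21.6 RPKM in WT activated cells (SD, n = 3). It fell by 3.07 in WT (SE 0.22, limma, adjusted p = 0.00111) and by 2.80 in KO cells (SE 0.19, adjusted p = 0.000825). Ciita, the master regulator of class II genes, fell by 3.28 in WT cells (SE 0.45, adjusted p = 0.0108), and H2-DMa fell by 2.07 (SE 0.35, adjusted p = 0.0213). H2-DMb1 fell by 2.91 in WT (SE 0.40, adjusted p = 0.0108) and by 2.01 in KO cells (SE 0.36, adjusted p = 0.0212). The class II chains H2-Aa and H2-Eb1 fell in KO cells by 1.74 (SE 0.29, adjusted p = 0.0183) and 1.52 (SE 0.27, adjusted p = 0.02). Fcer2a fell by 4.33 in WT (SE 0.68, adjusted p = 0.0185) and by 3.07 in KO cells (SE 0.61, adjusted p = 0.0303). In KO cells Fcrl5, an Fc receptor-like protein, fell by 3.01 (SE 0.63, adjusted p = 0.0345), and Rab11a, a GTPase of recycling endosomes, fell by 1.26 (SE 0.28, adjusted p = 0.0447). Without the libraries that stand apart every gene named here and in the paragraph before kept its call (adjusted p at most 0.000629). The difference moved by more than 1.5 times in fold for Fcrl5, to -2.18 in KO cells, and for Fcer2a, to -4.92 in WT and -3.91 in KO cells.

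The proportions of cathepsins within a library differed across the 3 stages. The pairs shown were chosen after their values were seen and have no test. The RPKM ratio of Ctsd to Ctsh was 0.561 to 0.712 in naive KO guide 1, 0.301 to 0.401 in naive WT arm 1, 0.486 to 0.526 in naive KO guide 2 and 0.268 to 0.365 in naive WT arm 2 libraries. In activated libraries it was 1.97 to 2.49 in those labelled KO and 1.31 to 4.17 in those labelled WT. In plasmablast libraries m1 and m2 it was 9.54 to 12.1 in KO and 6.94 to 9.67 in WT, and it was 2.81 in plasmablast KO m3. By RPKM, naive libraries thus held less Ctsd than Ctsh and cultured libraries held more. The side of 1 depends on the gene lengths used, 4297 bases for Ctsd and 6033 for Ctsh. In this ratio all 6 naive KO libraries lay above all 6 naive WT libraries. The share of gene pairs that separate in this way was not computed. Other ratios computed overlapped between naive KO and WT libraries. Ctsb to Ctsh was 0.666 in KO guide 1 B and 0.717 in WT arm 2 A. Ctsd to Ctss was 0.063 in KO guide 2 A and 0.084 in WT arm 1 C. The ratio of Ctsz to Ctss was 0.664 to 0.955 in naive libraries and 1.66 to 4.05 in cultured ones. Naive and cultured tables were made separately, so these ratios within a library are given in place of a difference of levels across tables.

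**Figure D4:**
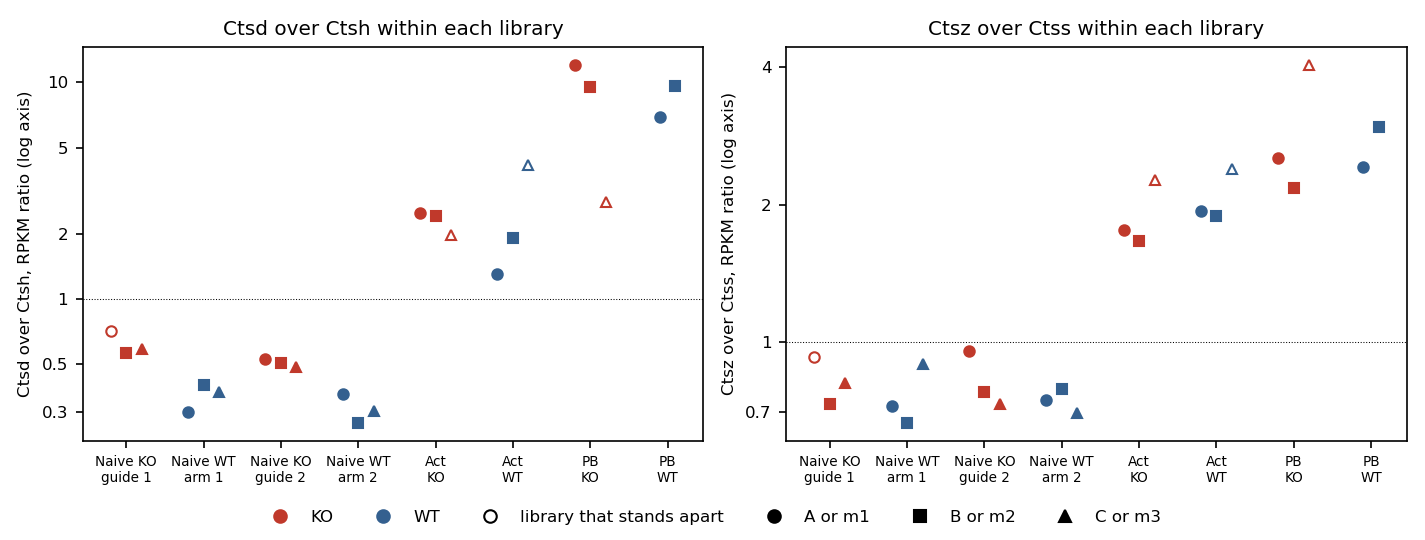
Ratio of the RPKM of Ctsd to Ctsh and of Ctsz to Ctss in each library, on log axes, from naive over activated (Act) to plasmablast (PB) cells, KO red and WT blue, with open symbols for the libraries that stand apart. Both ratios lie below 1 in all 12 naive libraries and above 1 in all 11 cultured ones.

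The genes whose level was most like that of a member were found by Pearson r of log2(RPKM + 1) over the 11 naive libraries that do not stand apart. The points share the KO and WT grouping, so the r is a description. Most like Fcgrt were Wfdc17 (r = 0.974), Cd200 (0.963) and Ppp3ca (0.945). Most like Ctsh were Rnase6 (0.981), Prkcd (0.973) and Alad (0.959), and most like Ifi30 were Irf5 (0.943), Rmc1 (0.933) and Smpdl3a (0.929). Over the 8 cultured libraries that do not stand apart, Ctsd was most like Mgat1 (0.999), Fkbp11 (0.998) and Nucb1 (0.998), and Ctsb was most like Napa, 4933404K13Rik and Tspan13 (0.997 each). These points also share the grouping into plasmablasts and activated cells, which moves a large share of all genes, so this r is a description too.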

How the data were processed

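The authors sequenced polyA RNA with SMART-seq v4 and Nextera XT libraries, per the labels' protocols, and the submitters' processing notes name the aligner STAR and the build mm10. The aligner's version, the counting tool, annotation and rule for listing a gene as detected are not given in the sources used here. The deposited values are RPKM with 3 decimals. Naive and cultured libraries have a table each, made and tested separately. Gene lengths in bases stand beside them in the deposited tables.

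Groups come from the labels, and no column was left unmapped. The 10 members and the pathway and marker lists were chosen with earlier results of these data known. Genes that reached an RPKM of 1 in 2 libraries or more were fitted on the log2(RPKM + 1) scale with limma 3.58.1 (R 4.3.3), with a mean per group and a trend in the spread, a two-sided moderated test and Benjamini-Hochberg adjustment over all tested genes (10137 naive, 9986 cultured, and 10068 and 9861 without the libraries that stand apart). The pseudocount understates changes of low genes. Pathway genes are named by a rule, up to 4 called genes with the smallest adjusted p for each list and comparison, and likeness by the 3 highest r. Some genes that this rule names are not reported here. The fitting was tested on simulated data. Reads behind a value were estimated from whole-read steps of RPKM times gene length (100% within 0.2 of a whole number), and they bound the precision. The kits do not mark strand. In GENCODE vM21, exons of Ctsd share 31.5% of their bases with the gene Gm49369, and those of Ctsb share 16.3% with Fdft1 on the opposite strand. How reads there were assigned is not stated, so levels of Ctsd and Ctsb are uncertain to that extent. Alternatives were another pseudocount, other filters, median scaling, quantile normalization, no trend, array weights, a replicate block and leaving out libraries.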

Additional observations from a re-analysis of the deposited data

Results flagged for a closer look

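In naive KO cells over both guides, the Ctsd level of 51.6 RPKM in guide 1 library A stood apart from the other 5 KO libraries (23.1 to 26.2 RPKM), by a gap of 0.89 of the whole range, where 0.625 is the critical value of Dixon's test for 6 samples. The Ctsh level of 72.5 RPKM in the same library stood apart from the other 5 (40.5 to 47.5 RPKM), by a gap of 0.783 of the range. These were 2 of 20 groups of values examined, and chance flags about 1 in 20. The library is the one with 1405 genes listed at 0 and the highest summed macrophage markers. The part of either in these levels was not tested.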

How the results depend on the processing

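Of 150 counts of called members under the alternatives, 117 stayed within 1.5 times the count with all libraries and 33 did not. The 117 include counts of 0 that stayed at 0. For the difference between the guides no gene was called under any alternative, so those counts could not move. In naive comparisons with KO guide 1 library A, leaving out that library and leaving out the libraries that stand apart are the same fit, counted separately. Over both guides in naive cells (1 member called), a pseudocount of 0.1 gave 0 (1.51% of all genes called). Quantile normalization gave 2 (2.41%), array weights 3 (5.2%) and leaving out the libraries that stand apart 3 (3.84%). With guide 1 (0 called), quantile normalization gave 1 (1.5%), array weights 2 (2.28%) and leaving out KO guide 1 library A 2 (2.4%). With guide 2 (0 called), array weights gave 2 (0.691%) and leaving out that library 2 (0.348%). In activated cells (0 called) array weights gave 8 and leaving out the libraries that stand apart 2 (0.71%). For plasmablasts against activated cells, array weights gave 7 in WT cells (0 called) and 5 in KO cells (1 called). These fits called 55.2% and 44.1% of all genes. Leaving out the libraries that stand apart gave 7 and 6, with 46.3% and 33.6% of all genes called. The array weights did not converge in the cultured table and called 67.6% of all genes in activated cells. Leaving out 1 library at a time gave 0 to 3 members over both guides, 0 to 2 with guide 1, 0 to 1 for WT and 0 to 5 for KO plasmablasts against activated cells, and 0 in the other comparisons. The shares of all genes called in these fits were 0.722% to 3.84% over both guides and 0% to 3.68% with guide 1. For plasmablasts against activated cells they were 0% to 1.86% in WT and 0.221% to 30.7% in KO cells. Under array weights the Ctsh difference in activated cells reversed from 0.04 to -0.12. In that fit activated KO m2 had a weight of 33.7 and activated WT m2 had 80.5. The other activated libraries had weights of 0.386 to 0.906. The reversed value therefore rests almost wholly on 1 library a group, m2, with Ctsh at 31.2 RPKM in KO and 34.0 RPKM in WT. Among values of single members, 14 lost their call, 56 gained one and 1342 stayed on the same side of the threshold, and 84 of these, called in neither fit, had the opposite sign at 2 decimals.

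Deviations from the group means correlated between same-lettered or same-numbered libraries at -0.243 to 0.254 (Pearson r), with 2 of 21 pairs over 0.1. The groups are small and the libraries that stand apart were included, so these values cannot tell whether libraries were paired. Letters and numbers were not treated as pairs because the labels do not say that they mark an animal or culture. With a replicate block the KO plasmablast against activated comparison gave 0 called members (1.92% of all genes called). Naive cells over both guides gave 1 (1.31%), and no other count changed. Depth limits plasmablast KO library m3, with about 51000 reads, most.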
